A study of Mus musculus with 22 samples.

Results

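The rescued line was an Ezh2 knockout clone of E14 mouse embryonic stem cells, clone 10, into which Ezh2 had been put back, and it was compared here with unmodified E14 cells. The comparison rested on 5 of the 22 mouse libraries of the series, chosen by their sample labels alone: 2 libraries of the rescued line and 3 of wild-type E14. A further 3 libraries of the knockout clone and 2 of a wild type named TG2A.NG.PB in the labels were used to place the values. All these cells were labelled E14 and were grown as stem cells with LIF, the cytokine that holds mouse embryonic stem cells in self-renewal. The labels spell the genotypes "Eeh2-null" and "Eeh2-rescued", which the Ezh2 counts below bear on.

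The knockout and the rescued line came from 1 clone, and the promoter that drives the returned Ezh2 was not given in the labels. A difference that belongs to this clone, one that outlasted the loss of Ezh2 and one that came with the level of the returned Ezh2 therefore cannot be told apart. Nothing in the labels says that replicates were separate cultures, so the p-values measure a spread between libraries, which may be technical. In the model of all 22 libraries that spread was estimated over all 10 groups of the series, also those outside this comparison. In these bulk samples, fewer cells of a type and less RNA per cell cannot be told apart either.

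Ezh2 is the main catalytic subunit of Polycomb repressive complex 2 (PRC2), which methylates lysine 27 of histone H3. Eed and Suz12 complete the core of the complex, Ezh1 is its alternative and weaker catalytic subunit, and accessory subunits such as Jarid2, Mtf2 and Epop guide it. In embryonic stem cells the mark covers CpG-rich promoters of developmental regulators, Hox genes among them, which are held silent. Primitive endoderm, the early lineage that forms the yolk sac, depends on Gata6, Gata4 and Sox17, and the series asked how PRC2 guards stem cells against that fate.

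The 10 libraries held 16.2 to 26.3 M estimated counts, and mitochondrial genes took 1.78 to 2.72% of them. Pearson correlation of log2 CPM (counts scaled by library size) over the 17547 tested genes was 0.982 to 0.985 within E14, 0.987 between the rescued libraries and 0.979 to 0.984 in the 6 pairs of a rescued and an E14 library. It was lower, 0.929 to 0.932, in the 6 pairs of a rescued and a knockout library. Fibroblast markers, which feeder cells would carry, summed to 52.6 to 57.3 CPM in E14 and 51.0 and 47.7 CPM in the rescued line, with 4 to 6 of 15 at 0. Macrophage markers summed to 4.19 to 10.6 and 5.99 and 6.16 CPM, with 7 to 9 of 10 at 0.

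Ezh2 was measured first, since it tests the labels. It stood at 173, 181 and 184 CPM in the 3 E14 libraries, at 495 and 533 CPM in the 2 rescued libraries and at 194 and 200 CPM in the 2 TG2A libraries. The 3 knockout libraries held 2, 1 and 1 counts of it. The rescued line thus carried more Ezh2 RNA than any wild-type library, 2.86-fold the E14 mean (514 ± 26 against 180 ± 5.7 CPM, SD, n = 2 and 3). The log2 difference was 1.52 (SE 0.14, 95% interval 1.22 to 1.81, adjusted p = 1.25e-04, edgeR quasi-likelihood test). The counts are for the whole gene (chromosome 6, 47530139 to 47595341, minus strand, GRCm38) and do not separate the returned copy from the endogenous one. Its exons overlap those of Gm26625 on the other strand, and the strand setting of the counting is not given in the sources used here.

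Beyond Ezh2, few genes separated the rescued line from E14. At an adjusted p below 0.05 in the model of all 22 libraries, 19 of 17547 genes were called, 0.108%, of which 5 were higher and 14 lower in the rescued line and 11 differed at least 2-fold. Against the same E14 libraries, the knockout clone had 8524 called genes, 48.6%, and the rescued line differed from the knockout in 7896, 45%. These 3 comparisons share libraries and are given side by side only. In all 19 genes the 2 rescued libraries lay wholly outside the range of the 3 E14 libraries; of all genes tested, 17.7% lay above every E14 library and 19.4% below. The count depends on the model: with the 5 compared libraries alone 551 of 14880 genes were called, 3.7%, and DESeq2 called 177 of 13982, 1.27%; with all 22 libraries and no filter on low counts 389 were called. Without rescued replicate 2 the count was 1, Ezh2 itself, and without rescued replicate 1, E14 replicate 3 or E14 replicate 2 it was 4, 5 and 9. All 19 genes were also called with the 5 libraries alone and with DESeq2.

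**Figure D1:**
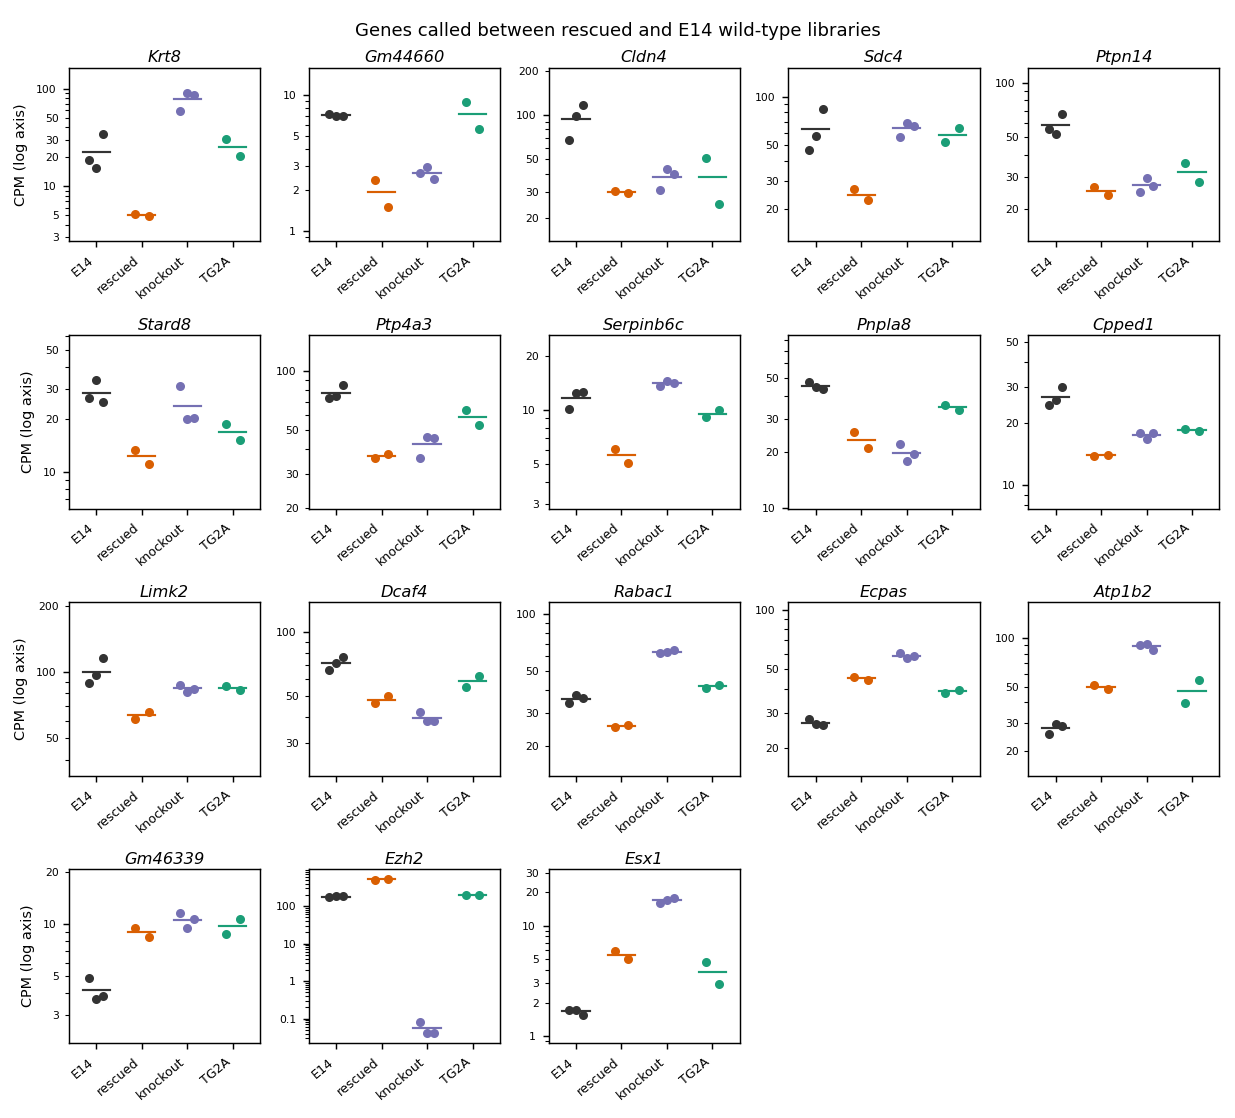
Level of 18 of the 19 called genes (CPM, log axis) in each library of E14, the rescued line, the knockout clone and TG2A; points are libraries and lines are group means. In every panel the 2 rescued points lie outside the range of the 3 E14 points, and in Cldn4, Ptpn14 and Gm46339 they lie near the TG2A points.

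The 14 lower genes comprised those whose knockout libraries were low as well and those whose knockout libraries were not. Promoters are shown for 2 of the first kind, Cldn4 and Ptpn14, and for Ezh1, because PRC2 is known for CpG-rich promoters and these differ in their CpG content. Each is the 250 bases before the RefSeq start (GRCm38.p6), 5′ to 3′ on the strand of the gene, with each CG in capitals: Cldn4 at chr5:134946935-134947184 (minus), Ptpn14 at chr1:189728018-189728267 (plus) and Ezh1 at chr11:101226464-101226713 (minus).
Cldn4: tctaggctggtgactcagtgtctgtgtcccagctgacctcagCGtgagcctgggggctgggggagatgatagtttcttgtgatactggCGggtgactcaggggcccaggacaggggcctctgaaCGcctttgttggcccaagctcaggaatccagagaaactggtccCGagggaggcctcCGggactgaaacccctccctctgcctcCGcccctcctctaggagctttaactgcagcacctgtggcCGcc
Ptpn14: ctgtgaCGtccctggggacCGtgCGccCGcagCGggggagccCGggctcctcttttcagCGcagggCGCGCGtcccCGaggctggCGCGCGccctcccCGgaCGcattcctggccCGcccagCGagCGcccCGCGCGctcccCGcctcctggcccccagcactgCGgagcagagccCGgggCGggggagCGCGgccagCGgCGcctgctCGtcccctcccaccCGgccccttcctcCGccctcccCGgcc
Ezh1: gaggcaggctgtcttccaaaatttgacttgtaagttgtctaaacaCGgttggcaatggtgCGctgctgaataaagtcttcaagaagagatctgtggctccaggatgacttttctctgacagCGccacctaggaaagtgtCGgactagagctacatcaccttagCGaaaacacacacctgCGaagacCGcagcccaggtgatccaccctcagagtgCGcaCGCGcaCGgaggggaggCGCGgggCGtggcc
The Cldn4 stretch holds 7 CG, the Ezh1 stretch 14 and the Ptpn14 stretch 34. CG reads the same on both strands, and 98.6% of the 10019 tested genes with 1 such promoter in the table hold at least 1, with a median of 15. Of the 8 lower genes with 1 promoter there, 4 held at least 10 CG, against 70.4% of all; the called genes thus included CpG-poor and CpG-rich promoters.

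Ptpn14, a tyrosine phosphatase that binds the Hippo effector YAP, stood at 55.7, 52.1 and 67.3 CPM in E14 and at 26.6 and 23.8 CPM in the rescued line. The log2 difference was -1.21 (SE 0.13, adjusted p = 5.5e-04). The knockout libraries were as low, at 24.7, 29.6 and 26.8 CPM, and TG2A was at 35.9 and 28.3 CPM, so that the 3 E14 libraries were the high ones. Its exons overlap those of Gm26574 on the other strand, which had at most 6 counts in any of the 5 libraries. Cldn4, a tight junction claudin, showed the same order. It was at 67.8, 99.5 and 117 CPM in E14, 30.6 and 29.8 CPM in the rescued line, 30.9 to 43.0 CPM in the knockout and 51.1 and 24.9 CPM in TG2A. Its difference from E14 was -1.65 (SE 0.28, adjusted p = 0.0343), while the difference from TG2A was -0.33 (adjusted p = 0.47).

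Pnpla8, a calcium-independent phospholipase, was at 47.3, 44.7 and 43.6 CPM in E14 and 25.5 and 21.1 CPM in the rescued line, beside 17.9 to 22.1 CPM in the knockout (log2 difference from E14 -0.96, adjusted p = 0.00223; an overlapping gene on the other strand, Gm47096, had at most 2.26 estimated counts). Unlike Ptpn14 and Cldn4, it was lower than TG2A too, which stood at 35.6 and 33.8 CPM (-0.58, adjusted p = 0.004). Ptp4a3, a phosphatase of the PRL family, had 73.2 to 84.9 CPM in E14, 36.0 and 37.8 CPM in the rescued line and 35.9 to 46.2 CPM in the knockout (log2 difference -1.07, adjusted p = 0.0067). Dcaf4, a substrate adaptor of the CUL4 ubiquitin ligase, was intermediate between E14 and the knockout (66.2 to 76.7, 46.5 and 49.8, and 38.1 to 42.0 CPM). The predicted gene Gm44660 and the phosphatase gene Cpped1 were also of this kind, at log2 differences of -1.86 and -0.95. In Cpped1 the rescued libraries, at 13.9 and 14.1 CPM, lay below the knockout range of 16.8 to 18.0 CPM.

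In 5 of the other 6 lower genes the knockout libraries overlapped the E14 range or exceeded it, and Limk2 lay between. Krt8, a keratin of simple epithelia and trophoblast, showed this most: 18.5, 15.4 and 33.9 CPM in E14, 5.21 and 4.88 CPM in the rescued line, 59.2, 90.8 and 86.2 CPM in the knockout and 30.1 and 20.3 CPM in TG2A. The rescued libraries were the lowest of the 10. The log2 difference from E14 was -2.18 (SE 0.40, 95% interval -3.02 to -1.33, adjusted p = 0.0464) and that from TG2A -2.32 (adjusted p = 0.0012). Its overlapping gene Gm36026 had at most 2 counts in any of the 5 libraries. Krt18, the keratin that pairs with Krt8, was at 13.0, 12.1 and 32.3 CPM in E14 and 9.59 and 7.61 CPM in the rescued line, and its difference of -1.18 was not called (95% interval -2.13 to -0.22, adjusted p = 0.438). E14 replicate 3, the deepest library at 26.3 M counts, was the highest E14 library in both keratins, in Cldn4 and in Sdc4, and without it Krt18 differed by -0.55 (adjusted p = 0.987). The calls of Krt8 (-1.75, adjusted p = 0.18), Cldn4 (-1.47, adjusted p = 0.141) and Sdc4 (-1.07, adjusted p = 0.141) were lost without it. Each of these 3 was also lost without either rescued replicate; Krt8 was lost without E14 replicate 1 as well, and Cldn4 and Sdc4 without E14 replicate 2.

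Sdc4, a cell surface heparan sulfate proteoglycan, was at 47.1, 56.9 and 84.0 CPM in E14 and at 26.7 and 22.8 CPM in the rescued line, beside 56.1 to 68.9 CPM in the knockout and 52.1 and 63.9 CPM in TG2A (log2 difference from E14 -1.34, SE 0.24, adjusted p = 0.0402). Rabac1, a prenylated Rab acceptor of the Golgi, differed less but with little spread: 34.0, 37.3 and 35.9 CPM in E14, 25.2 and 26.0 CPM in the rescued line and 62.3 to 64.4 CPM in the knockout. Its log2 difference was -0.48 (SE 0.08, adjusted p = 0.0343), and that from TG2A was -0.70 (adjusted p = 9.5e-05). Serpinb6c, a member of a clustered serpin family whose copies may share reads, was at 10.1 to 12.7, 6.10 and 5.09, and 13.7 to 14.6 CPM. Stard8 was lower by a log2 difference of -1.21. Limk2, a kinase of the actin regulator cofilin, was at 89.1, 96.9 and 115 CPM in E14, 60.8 and 66.0 CPM in the rescued line (log2 difference -0.66) and 81.4 to 87.3 CPM in the knockout, which was itself lower than E14 (-0.26, adjusted p = 0.045).

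Among the 5 higher genes, 4 besides Ezh2 stood between E14 and the knockout. Esx1, an X-linked homeobox gene known from the placenta, was low throughout: 1.74, 1.73 and 1.57 CPM in E14, 5.93 and 4.98 CPM in the rescued line and 16.1, 16.9 and 17.9 CPM in the knockout. Its log2 difference from E14 was 1.70 (SE 0.24, adjusted p = 0.00719). TG2A, at 4.68 and 2.99 CPM, lay above E14 too, and the rescued line did not pass the test against it (0.51, adjusted p = 0.18). Atp1b2, a beta subunit of the sodium pump, was at 25.5 to 29.6 CPM in E14, 50.9 and 48.1 CPM in the rescued line, 84.3 to 92.2 CPM in the knockout and 39.4 and 54.7 CPM in TG2A (log2 difference from E14 0.83, adjusted p = 0.0464). Ecpas, a proteasome adaptor, had 26.1 to 28.0, 45.8 and 44.3, and 56.8 to 60.8 CPM (0.74, adjusted p = 0.0378). In Ecpas and Atp1b2, as in the predicted gene Gm46339, the difference from TG2A did not pass the test.

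The TG2A libraries were a second wild-type set and themselves far from E14: 4270 genes, 24.3%, were called between the wild-type sets, and 3798, 21.6%, between the rescued line and TG2A. Of the 19 genes, 10 were called against both sets, each in the same direction, among them Ezh2, Gm44660, Krt8, Limk2, Pnpla8, Ptp4a3, Rabac1, Sdc4 and Serpinb6c. The other 9, Cldn4, Ptpn14 and Esx1 among them, were called against E14 only. Gm46339 changed sign against TG2A, at a log2 difference of -0.11.

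To set the 19 genes beside the effect of losing Ezh2 without sharing a library, the knockout was compared with TG2A. There 2381 genes were called higher, 13.6%, and 2482 lower, 14.1%. Of the 19 genes, 8 were called in the same direction in both comparisons (among them Gm44660, Ptp4a3, Pnpla8 and Dcaf4, lower, and Ecpas, Atp1b2 and Esx1, higher) and 4 in opposite directions: Ezh2, Krt8, Serpinb6c and Rabac1. The remaining 7 were not called in the knockout. With the controls exchanged, rescued against TG2A and knockout against E14, the counts were 145 and 2727, so the 8 and 4 hold for this choice of controls only. Without a filter on low counts they were 103 and 129.

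**Figure D2:**
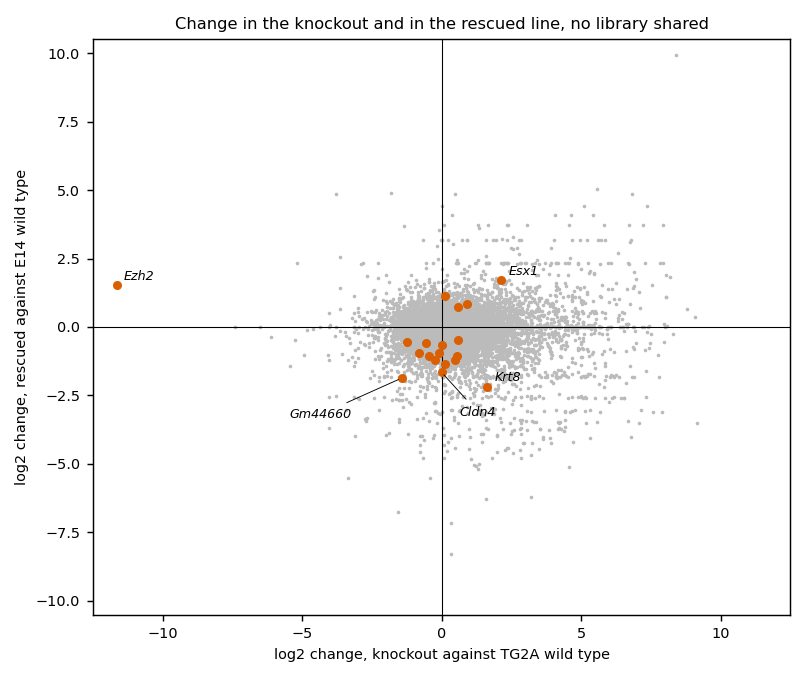
Log2 difference of the rescued line from E14 (vertical) against that of the knockout from TG2A (horizontal) for the 17547 tested genes in grey and the 19 called genes in orange. The grey cloud is wide horizontally and centred on 0 vertically; Esx1 lies high in both comparisons, Krt8 is low in the rescued line and high in the knockout, and Ezh2 is far to the left.

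Genes that moved in the knockout were near the wild-type level in the rescued line. The 2381 genes higher in the knockout than in TG2A had a median log2 change there of 1.49, and their median difference between the rescued line and E14 was -0.03, with quartiles at -0.33 and 0.20. The 2482 lower genes had medians of -0.56 and 0.03, and over all tested genes the median difference from E14 was -0.004. Among the higher genes 3 were called higher and 3 lower in the rescued line, and among the lower genes 1 and 5. Of the 919 genes at least 4-fold higher in the knockout, 1 was called in the rescued line, Esx1. These 919 were mostly silent in E14 (median 0.304 CPM), and 32.3% of them differed at least 2-fold between the rescued line and E14 in either direction, against 8.58% of all genes; at these levels few counts underlie each value.

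Hox genes, classical PRC2 targets, summed to 14.2, 14 and 12.4 CPM over 39 genes in E14 and to 16.1 and 10.8 CPM in the rescued line, against 136 to 145 CPM in the knockout. None of the 33 tested was called in the rescued line, whereas 32 were higher in the knockout against E14 and 27 against TG2A. The median difference of the 33 from E14 was -0.25, with quartiles at -1.12 and 0.65, 2 above every E14 library and 4 below. In each E14 library 15 to 20 of the 39 were at 0, and only 5 had enough counts for the model of 5 libraries. At these levels modest differences from E14 were not detectable. Hoxa10 was at 0.12, 0 and 0.0746 CPM in E14, at 0.0555 and 0.107 CPM in the rescued line and at 17.1 to 23.8 CPM in the knockout. The rescued libraries lay within the E14 range. Of 99 other developmental transcription factors, 79 were tested and none was called. Their sum was 80.9 to 94.4 CPM in E14, 77.8 and 86.6 CPM in the rescued line and 244 to 256 CPM in the knockout. The median difference of the 79 from E14 was -0.28, with 6 above every E14 library and 18 below. A list of 26 tested signalling genes had a median of -0.27, with 2 above, 10 below and 0 called. Over all genes the median was -0.004, with 17.7% above and 19.4% below.

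Among other genes with the largest knockout changes against TG2A that had no overlapping neighbour, Lncenc1, a noncoding RNA of naive stem cells, was at 345, 336 and 323 CPM in E14 and 339 and 361 CPM in the rescued line, beside 30.4 to 32.1 CPM in the knockout. Tmem72 was at 0.418 to 1.26 CPM in E14, 0.61 and 1.07 CPM in the rescued line and 11.2 to 12.6 CPM in the knockout. Both had the rescued libraries within or just above the E14 range. In Enpp3, an ectonucleotidase, and Kndc1, a guanine nucleotide exchange factor, the rescued libraries lay between E14 and the knockout. Enpp3 was at 20.2 to 23.4 CPM in E14, 10.04 and 14.2 CPM in the rescued line and 4.55 to 5.26 CPM in the knockout, with 21.1 and 24.4 CPM in TG2A. Kndc1 was at 24.1 to 30.7, 14.6 and 14.9, and 3.66 to 4.09 CPM in these groups; TG2A, at 17.4 and 9.80 CPM, spanned the rescued values (difference from TG2A 0.11, adjusted p = 0.82). The 12 genes of this kind differed from E14 by -1.01 to 0.82 on the log2 scale, and none was called in the model of all libraries. Enpp3 and Kndc1 did not pass the test in the model of all libraries (adjusted p = 0.304 and 0.22), and both were called with the 5 libraries alone (adjusted p = 0.019 and 0.00619).

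Of the 12 measured PRC2 subunits, Ezh2 was the 1 called. The median difference of the 12 was 0.08, against -0.004 over all genes. Eed was at 181 to 189 CPM in E14 and 185 and 203 CPM in the rescued line, and Suz12 at 220 to 287 and 301 and 284 CPM; their 95% intervals, -0.24 to 0.36 and -0.21 to 0.56 on the log2 scale, leave room for modest differences. Epop, an accessory subunit, was at 148 to 201 CPM in E14 and 175 and 205 CPM in the rescued line, and at 666 to 766 CPM in the knockout. Its rescued values overlapped those of E14. Against TG2A, at 420 and 480 CPM, Epop was lower (-1.24, adjusted p = 3.3e-04).

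Ezh1, the other catalytic subunit, did not follow Epop. It was at 48.1, 45.6 and 40.5 CPM in E14, 22.8 and 20.6 CPM in the rescued line, 15.9 to 16.8 CPM in the knockout and 29.1 and 26.5 CPM in TG2A. The rescued libraries were below every wild-type library and above every knockout library. The log2 difference from E14 was -1.04 (95% interval -1.46 to -0.63), just short of the threshold in the model of all libraries (adjusted p = 0.0529) and past it with the 5 libraries alone (adjusted p = 0.00275). Against TG2A it was -0.36 and did not pass the test (adjusted p = 0.25). Among 18 PRC1 subunits and 14 regulators that oppose Polycomb, none was called in the model of all libraries. With the 5 libraries alone Nsd2, a methyltransferase of lysine 36 of histone H3, was higher (51.5 to 60.1 CPM in E14, 81.0 and 77.6 CPM in the rescued line, adjusted p = 0.014).

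The primitive endoderm landmarks were far below the knockout level in the rescued line, and Gata6, Gata4 and Sox17 lay above every E14 library. Gata6 was at 1.56, 0.777 and 0.896 CPM in E14, 2.05 and 1.71 CPM in the rescued line and 42.4, 36.2 and 34.2 CPM in the knockout. The rescued values lay just above the E14 range and far under the knockout; the log2 difference of 0.83 had a 95% interval of -0.93 to 2.59 and an adjusted p of 0.838. Gata4 was at 0.419 to 1.02 CPM in E14 and 1.33 and 1.34 CPM in the rescued line, and Sox17 at 0.18 to 0.261 and 0.388 and 0.804 CPM. Their differences, 0.93 (95% interval -1.13 to 2.99) and 1.34 (-1.14 to 3.83), were not called, and at these levels a several-fold difference was not detectable. Sox7 and the receptor gene Pdgfra overlapped between the groups.

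As a list, the 10 primitive endoderm transcription factors summed to 19, 20.3 and 23.1 CPM in E14, 16.3 and 16.3 CPM in the rescued line and 164 to 192 CPM in the knockout, with 0 of 10 called and a median difference of -0.11. Of these 10, 3 lay above every E14 library and 2 below. In E14 and the rescued line most of each sum came from members other than Gata6, Gata4, Sox17 and Sox7. The 17 surface and basement membrane genes of that lineage summed to 1724 to 1841 CPM in E14, 1761 and 1805 CPM in the rescued line and 4518 to 5230 CPM in the knockout, again with 0 called. Sums of 2 further lists lay outside the E14 range. Parietal endoderm genes summed to 70.8 to 74.9 CPM in E14, 82.9 and 89.6 CPM in the rescued line and 107 and 187 CPM in TG2A. Visceral endoderm genes summed to 69.7 to 88.1, 41.8 and 40.6, and 42.9 and 64.8 CPM. Their median differences were -0.05 and 0.04, with 0 called. Of 8 parietal genes 1 lay above every E14 library and 1 below, and of 6 visceral genes 0 and 1. The surface genes summed to 1722 and 1838 CPM in TG2A, within or close to the E14 range, and the transcription factors to 23.6 and 40.6 CPM, above every E14 library. Gata6 was at 3.28 and 12.3 CPM in TG2A, and the rescued line was lower than TG2A in Gata6 (-2.05, adjusted p = 0.049). Its differences from TG2A in Gata4, Sox17 and Pdgfra (-1.58, -2.30 and -1.42) did not pass the test (adjusted p = 0.19, 0.053 and 0.071).

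None of the 14 naive and 10 general pluripotency genes was called in the model of all libraries, where the median differences were 0.01 and 0.02. Of the naive genes 3 lay above every E14 library and 4 below, and of the general genes 2 and 2. Nanog was at 384, 306 and 271 CPM in E14 and 365 and 352 CPM in the rescued line, Sox2 at 445, 458 and 402 and 446 and 433 CPM, and Zfp42 at 701, 661 and 616 and 702 and 746 CPM. The rescued libraries of Nanog and Sox2 lay within the E14 range and those of Zfp42 just above it. Pou5f1 differed by 0.02 (95% interval -0.35 to 0.40), Esrrb by -0.04 (-0.79 to 0.71) and Klf4 by 0.30 (-0.63 to 1.23). The 14 naive genes summed to 3531 to 3806 CPM in E14 and 3460 and 3538 CPM in the rescued line. One naive factor, Tfcp2l1, was lower with the 5 libraries alone (862, 779 and 857 CPM in E14, 571 and 587 CPM in the rescued line, adjusted p = 0.00619) but not in the model of all libraries (adjusted p = 0.781). TG2A held 350 and 560 CPM of Tfcp2l1.

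**Figure D3:**
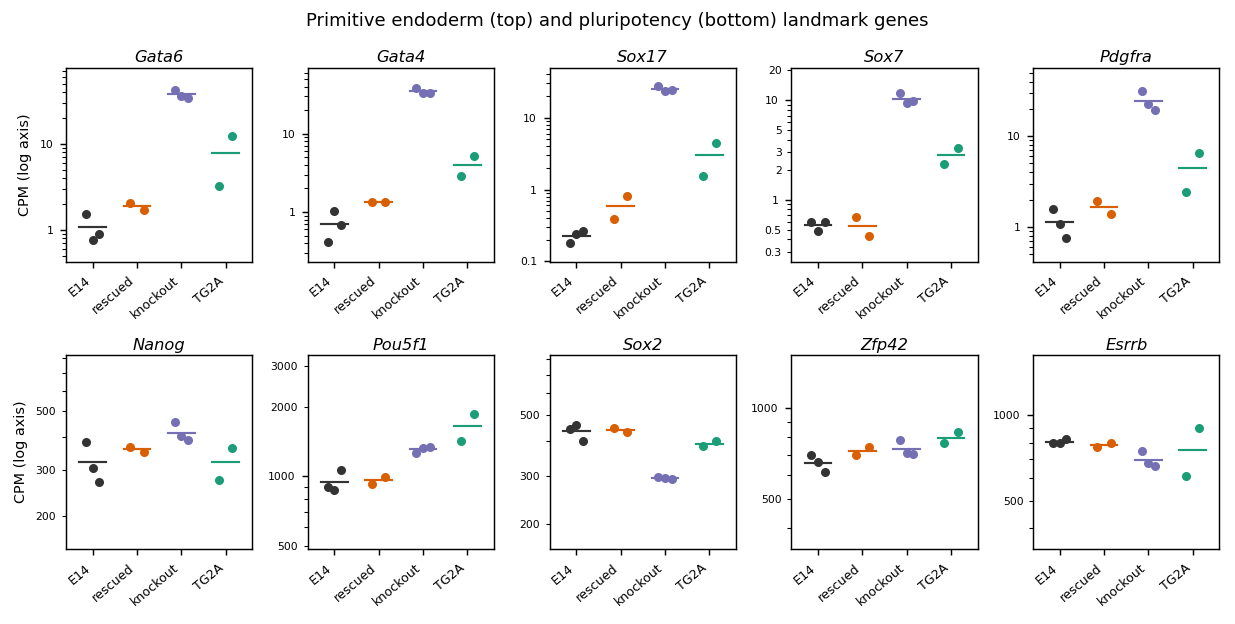
Level of 5 primitive endoderm and 5 pluripotency landmark genes (CPM, log axis) in each library; points are libraries and lines are group means. The rescued points of the upper row lie below every knockout point. They lie above the E14 range in Gata6, Gata4 and Sox17 and overlap it in Sox7 and Pdgfra. The rescued points of Nanog, Pou5f1 and Sox2 lie within the E14 range.

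Over 32 lists of pathways, lineages and complexes, 481 distinct genes were tested and 3 were called in the model of all libraries, Ezh2, Krt8 and Esx1. The lists were therefore described by counts from the 5 libraries alone, which called more genes than the model of all libraries. How many members lay outside the E14 range was given as well. Whether the added calls of the 5-library model are true was not tested, and no library was left out in that model. These counts are to be read against 3.7% called, 17.7% above every E14 library and 19.4% below. A gene named from that model below was not called in the model of all libraries.

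Trophoblast genes had the second lowest list median, -0.84: of 11 tested, 7 lay below every E14 library, and Esx1 was the 1 above. Their sum, 119 to 149 CPM in E14, was 104 and 93.3 CPM in the rescued line, 178 to 245 CPM in the knockout and 102 and 68.8 CPM in TG2A. The lowest median, -0.95, was that of 10 primitive streak and mesoderm genes, of which 6 lay below every E14 library. The 15 epithelial and mesenchymal genes of a further list had a median of -0.13, with 3 above every E14 library and 4 below; with the 5 libraries alone 0 were called lower and 1 higher, the intermediate filament gene Vim (adjusted p = 0.0386). Outside that list, 4 epithelial genes picked after their values were seen were called lower in the same model. Jup, plakoglobin, was at 137, 171 and 171 CPM in E14 and 85.9 and 96.8 CPM in the rescued line (adjusted p = 0.00513 with the 5 libraries alone, 0.0713 with all). TG2A had 157 and 158 CPM of Jup and the knockout 98.3 to 100 CPM, so the rescued line and the knockout were both low there. The others were Cldn3, Podxl and F11r (adjusted p = 0.024, 0.013 and 0.049). Unlike Jup, these did not pass the test against TG2A, at log2 differences of -0.24, -0.38 and -0.19 (adjusted p = 0.80, 0.33 and 0.17). Cldn3 was near the floor, at 1.68 to 2.51 CPM in E14 and 0.665 and 0.482 CPM in the rescued line. The knockout held 1.02 to 1.70 CPM of it. In Podxl and F11r the knockout was above E14, at 88.0 to 117 CPM against 27.5 to 44.9, and 86.7 to 91.6 CPM against 65.5 to 72.3.

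Lefty1, Lefty2 and Nodal, picked after their values were seen, were lower in the rescued line with the 5 libraries alone and not called with all. Lefty1, an inhibitor that Nodal induces against itself, was at 58.0, 68.6 and 74.3 CPM in E14 and 28.6 and 26.8 CPM in the rescued line. Lefty2, its paralogue, was at 46.4, 60.1 and 69.9 and 25.3 and 23.6 CPM. In both genes the rescued libraries lay below every E14 library. The adjusted p with the 5 libraries alone was 0.00154 for Lefty1, 0.00428 for Lefty2 and 0.028 for the ligand gene Nodal (51.4 to 58.6 against 37.9 and 42.1 CPM). With all libraries they were 0.535, 0.683 and 0.758. TG2A spanned 28.9 and 46.6 CPM in Lefty1, and the 11 BMP and TGF-beta response genes had 2 called lower, 0 higher and 5 below every E14 library.

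Of 14 cell cycle inhibitors and p53 response genes, 7 lay below every E14 library and 4 above, with a median of -0.13 and 0 called in the model of all libraries. Cdkn2a, Cdkn2c, Gdf15 and Sesn2 were the 4 above. Trp53inp1, a p53-induced stress protein, was at 286, 263 and 330 CPM in E14, 173 and 149 CPM in the rescued line, 87.6 to 99.3 CPM in the knockout and 151 and 175 CPM in TG2A. Bbc3, the apoptosis inducer PUMA, was at 33.6 to 40.4, 25.1 and 24.6, 9.63 to 12.1, and 28.4 and 21.5 CPM. In both genes the rescued line lay between E14 and the knockout and near TG2A. Ccng1, a p53-induced cyclin, was at 279, 260 and 279 CPM in E14, 197 and 177 CPM in the rescued line and 255 and 308 CPM in TG2A, and Mdm2, the ubiquitin ligase of p53, at 138 to 166, 124 and 113, and 138 and 148 CPM. In these 2 the rescued line lay below both wild-type sets, though the differences from TG2A did not pass the test (adjusted p = 0.051 and 0.28). The knockout, at 145 to 191 CPM, overlapped the rescued line in Ccng1. In Mdm2 the knockout was at 71.3 to 75.7 CPM, so there too the rescued line lay between E14 and the knockout. With the 5 libraries alone 4 of 13 tested list members were called lower and 0 higher: Trp53inp1, Bbc3, Ccng1 and Mdm2 (adjusted p = 0.00428, 0.015, 0.00619 and 0.046). Trp73, a p53 relative picked after its values were seen, was at 7.65 to 13.0 CPM in E14 and 2.77 and 3.21 CPM in the rescued line (adjusted p = 0.0066 in that model).

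Members above the E14 range were most frequent among the unfolded protein and amino acid stress genes. Of 11 stress genes 7 lay above every E14 library and 0 below, and 3 were called higher with the 5 libraries alone: Chac1, Herpud1 and Trib3 (adjusted p = 0.00619, 0.00984 and 0.028). Chac1, a glutathione-degrading enzyme, was at 25.4, 24.5 and 18.0 CPM in E14 and 43.3 and 47.0 CPM in the rescued line, above the knockout (7.80 to 17.4 CPM) and TG2A (19.2 and 12 CPM) as well. Of 16 germline genes 8 lay above every E14 library and 2 below, Dppa3 and Prdm1. With the 5 libraries alone Mael, Tex11 and Stra8 were called higher, and Prdm1, a repressor needed for germ cell fate, was called lower (25.3, 26.1 and 23.2 CPM in E14, 16.4 and 15.1 CPM in the rescued line, adjusted p = 0.0128). Stra8, the gene that opens meiosis, was at 19, 11.1 and 4.11 CPM in E14, 47.2 and 41.5 CPM in the rescued line, 66.3 to 79.9 CPM in the knockout and 25.9 and 60.4 CPM in TG2A. E14 replicates differed widely in Stra8.

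Of 25 imprinted genes 9 lay above every E14 library and 3 below, and with the 5 libraries alone 2 were called higher and 0 lower. Grb10, a growth factor receptor adaptor, was at 206, 190 and 172 CPM in E14 and 344 and 356 CPM in the rescued line (adjusted p = 0.00154 with the 5 libraries alone, 0.375 with all), beside 274 to 290 CPM in the knockout. Rian, a noncoding RNA of the Dlk1 region, was at 4.07 to 4.25 CPM in E14, 8.59 and 7.18 CPM in the rescued line and 0.609 to 1.27 CPM in the knockout. Both were highest in the rescued line. Zic2, a neural transcription factor picked after its values were seen, showed that order too. It was at 11.1, 8.01 and 7.91 CPM in E14, 18.7 and 19.4 CPM in the rescued line and 12.7 to 13.0 CPM in the knockout (adjusted p = 0.00729 with the 5 libraries alone). Its list, 10 formative and primed pluripotency genes, had a median of -0.37, with 3 above every E14 library and 5 below. With the 5 libraries alone 1 of its 9 tested members was called higher and 2 lower.

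**Figure D4:**
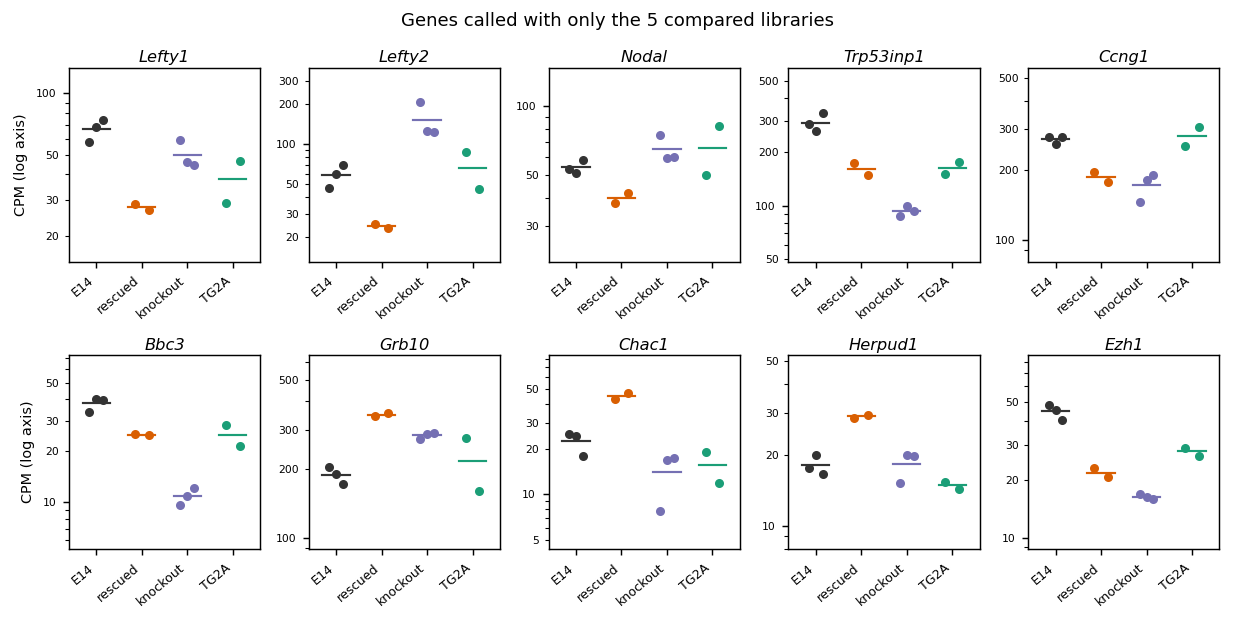
Level of 10 genes called between the rescued line and E14 with the 5 libraries alone but not in the model of all 22 (CPM, log axis); points are libraries and lines are group means. The rescued points lie outside the E14 range in each panel; in Trp53inp1, Bbc3 and Ezh1 they lie between E14 and the knockout, and in Chac1, Herpud1 and Grb10 they are the highest.

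**Figure D5:**
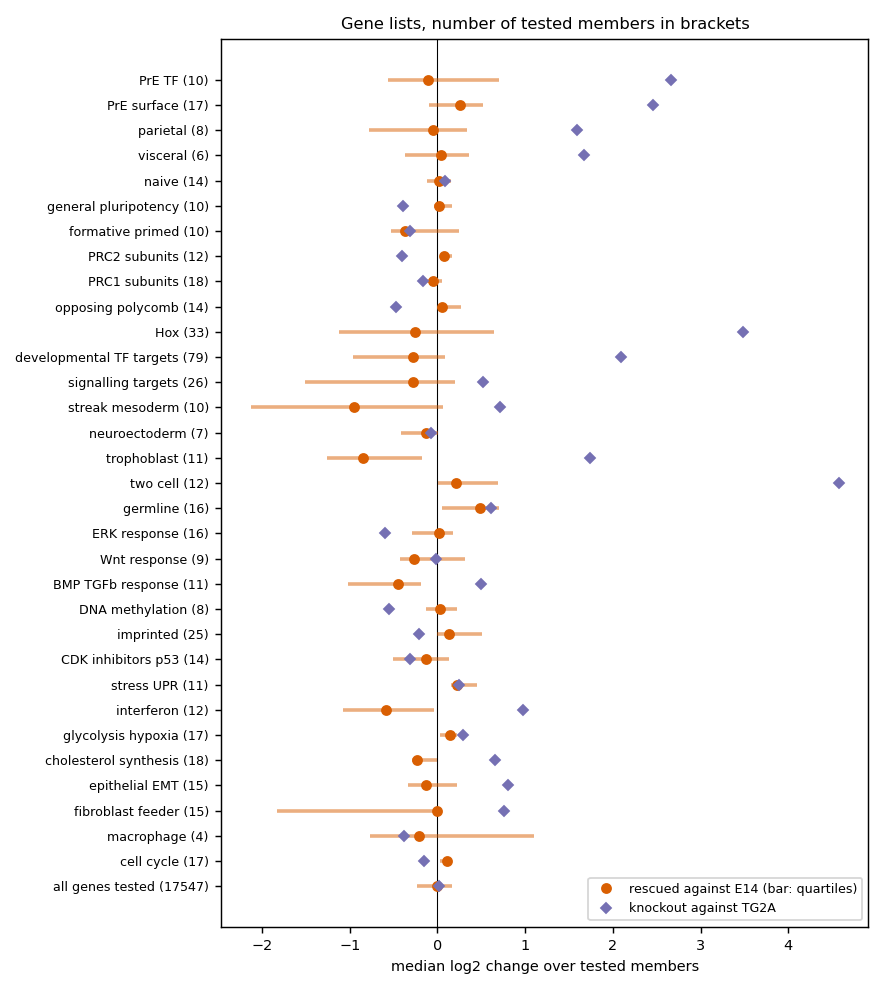
Median log2 difference over the tested members of each gene list for the rescued line against E14 (circles, bars spanning the quartiles of members) and for the knockout against TG2A (diamonds). The primitive endoderm transcription factor and surface, Hox and 2-cell lists sit far to the right in the knockout. In the rescued line their medians are -0.11, 0.26, -0.25 and 0.22, and the Hox bar runs from -1.12 to 0.65. The streak and trophoblast lists have the lowest circles, at -0.95 and -0.84.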

How the data were processed

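RNA-seq was measured in 22 mouse libraries in 10 groups; the labels give the molecule as polyA RNA and the kit as rRNA depletion, so the RNA selection is uncertain. Per the submitters' processing notes, Trim Galore, STAR 2.7.6a, DESeq2 and mm10 were used; which tool, annotation and strand setting produced the counts is not given in the sources used here. Expected counts, which the authors deposited for 55367 gene symbols, were not all whole numbers and were rounded. The plan had assumed raw counts.

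In R 4.3.3, edgeR 4.0.16 (filterByExpr, TMM, quasi-likelihood, 1 coefficient per group, all 22 libraries, 12 residual degrees of freedom, Benjamini-Hochberg adjustment over 17547 genes, threshold 0.05) was tested on simulated data and then run. CPM use TMM-scaled sizes; a standard error is the log2 difference over the root of F. DESeq2 1.42.0, other scalings, filters, library subsets and controls were alternatives. Locations are GENCODE M21.

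Members and lists were chosen with earlier results of these data known. Named genes were 12 landmarks, PRC2 subunits, called list members (up to 3 per list), and the largest called differences averaging 10 CPM or more, in all and by direction in the knockout. Genes named from the 5-library model or as outside the E14 range, Krt18, and the 6 largest knockout changes per direction, without overlapping exons, were chosen after values were seen. One called gene is not reported here by name.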

Additional observations from a re-analysis of the deposited data

How the results depend on the processing

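Ezh2 was called in every alternative run, at log2 differences of 1.38 to 1.57. The count of 19 genes depended on the model: it was 19 with the other size factors, 177 with DESeq2, 389 without the filter on low counts, 551 with the 5 libraries alone, 858 in a model of E14, rescued and knockout libraries, 11 at 2-fold or more and 3798 with TG2A as control, and 1 to 20 with 1 library left out. The 5-library and 3-group models hold fewer libraries; the cause was not tested. The genes shared in direction with the knockout were 8, and 145 with controls exchanged, 103 without the filter and 0 to 6 with 1 library left out; those in opposite directions were 4, and 2727, 129 and 1 to 5. A replicate block gave 643 genes against 858 in the same 3 groups without it, and Ezh2 at 1.54. Same-numbered E14 and rescued libraries did not deviate together (r = -0.018), so the numbers were not taken as pairs.

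Signs turned with TG2A as control, where the cause was not tested, for Gata6 (-2.05), Gata4 (-1.58), Sox17 (-2.30), Pdgfra (-1.42), Pou5f1 (-0.78), Zfp42 (-0.14), Esrrb (0.0504), Eed (-0.80), Rbbp4 (-0.14), Aebp2 (-0.15), Epop (-1.24), Gm46339 (-0.11), Hoxa10 (-2.35), D13Ertd608e (0.0616), Kndc1 (0.11), Tfcp2l1 (0.35) and Mael (-0.12). Differences near 0 turned with the block in Sox2 (-0.0116), Epop (-0.00572) and Usp17le (-0.00077), and in Phf1 with DESeq2 (-0.000266), the 5 libraries (-0.00266) and the 3 groups (-0.000123). With 1 library left out, Sox7 ran from -0.39 to 0.23, Pou5f1 from -0.033 to 0.11, Sox2 from -0.0375 to 0.0546, Eed from -0.0143 to 0.13, Jarid2 from -0.0163 to 0.20, Aebp2 from -0.0251 to 0.23, Phf1 from -0.10 to 0.10, Epop from -0.0605 to 0.18, Hoxa10 from -0.24 to 0.76, D13Ertd608e from -0.57 to 1.65, Usp17le from -0.51 to 0.68 and Tmem72 from -0.18 to 0.94. Low counts limit the last 4.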

Other observations

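Genes of the 2-cell-like state, a rare state of embryonic stem cell cultures, summed over 13 genes to 45.0, 22.6 and 3.35 CPM in the 3 E14 libraries, to 25.8 and 23.9 CPM in the rescued line and to 394 to 435 CPM in the knockout. The E14 libraries thus spread more widely than the rescued libraries, and none of the 12 tested was called; near-identical copies are common among these genes and their counts are uncertain.

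Cholesterol synthesis genes were mostly a little low: 12 of 18 lay below every E14 library and 2 above, with a median log2 difference of -0.23 and 0 called in the model of all libraries. In the knockout against TG2A 10 of these 18 were higher. Cell cycle genes had 9 of 17 above every E14 library and 0 below, with a median of 0.11, and glycolysis and hypoxia genes 8 of 17 above and 0 below, with a median of 0.15. No list member of these 3 groups was called in the model of all libraries. Across chromosomes the median difference between the rescued line and E14 stayed between -0.04 and 0.03 on every autosome and on X.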
